A study of Mus musculus with 6 samples.

Results

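Imprinted genes with known roles in growth and body fat were followed in epididymal white adipose tissue (eWAT): Mest, Peg10, Sgce, Peg3, Plagl1, Igf2, H19, Dlk1, Grb10 and Cdkn1c. There were 10 of them, of 21361 named genes in the expression table, chosen by name with results of the same comparison known, so their change between the groups is given as a description, with no test. RNA was sequenced from male mice of 2 genotypes, 3 Mettl14f/f and 3 Mettl14Δfat, with 1 mouse a library. Mettl14 is the structural partner of Mettl3 in the enzyme that writes N6-methyladenosine (m6A) on RNA. Mice of both groups carried floxed Mettl14 alleles, and the Mettl14Δfat mice also carried Cre under the adiponectin promoter, which is active in white and brown adipocytes and not in the other cells of the tissue. Controls are WT in the genotype label and ff in the sample titles. All mice began a high fat diet (HFD) at 8 weeks of age and were fasted overnight. The diet lasted 16 weeks by the labels and 20 weeks by the design text. Controls with Cre alone were not analysed here, so an effect of Cre and the loss of Mettl14 cannot be told apart. The loss of Mettl14 and any difference in adiposity that came with it cannot be told apart either.

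Genomic imprinting is the expression of a gene from only the copy inherited from the mother or only the copy inherited from the father. It is set by DNA methylation that differs between eggs and sperm and is kept at control regions, each of which often governs several neighbouring genes. Many paternally expressed genes promote growth, and many maternally expressed genes restrain it. Among the 10 genes, Mest, Peg10, Sgce, Peg3, Plagl1, Igf2 and Dlk1 are known in mice as paternally expressed, and H19, Cdkn1c and, in most tissues, Grb10 as maternally expressed. Mest is known in fat as a gene whose level follows the expansion of fat mass in mice. The expression values here add up both parental copies, so nothing in these data shows which copy was used.

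Values are FPKM, which relates the fragments of a gene to its transcript length and to the size of the library, divided by a scaling factor for each library that lay between 0.932 and 1.07. They are called scaled FPKM, and values of a group are given in the order of replicates 1, 2 and 3. A fold change is the Mettl14Δfat mean minus the Mettl14f/f mean of log2(scaled FPKM + 1) with its standard error (SE), and it understates the change of genes with low values. The number of reads behind a value is unknown from FPKM. Mettl14 itself was at 5.35, 5.01 and 5.81 scaled FPKM in Mettl14f/f and at 4.21, 4.12 and 4.27 in Mettl14Δfat, a log2 fold change of -0.30 (SE 0.0658, limma adjusted p = 0.0108). That call was lost with the FPKM as deposited (adjusted p = 0.0856) and with Mettl14Δfat replicate 3 alone (adjusted p = 0.134).

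Libraries Mettl14Δfat 1 and 2 held transcripts of other tissues. The summed level of 6 germ line markers was 167 and 257 scaled FPKM in them, against 0.328 in Mettl14Δfat replicate 3 and 0.236 to 0.945 in Mettl14f/f. Leydig cell markers summed to 93.7 and 143 in these 2 libraries, to 19.7 in replicate 3 and to 8.75 to 11.5 in Mettl14f/f. Insl3 carried most of the Leydig cell sum in Mettl14Δfat, at 80.6, 126 and 15.3, against 5.77 to 8.07 in the controls. Cyp11a1 was at 2.91, 4.21 and 2.26, also above the controls (0.783 to 1.07). Cyp17a1 was at 0.911, 1.63 and 0.029 in Mettl14Δfat, and Hsd3b1 at 6.9, 7.79 and 0.029. Star went the other way, at 1.74, 1.98 and 2.05 in Mettl14Δfat against 2.07 to 2.84 in the controls. Sertoli cell markers summed to 4.25 and 5.54 in Mettl14Δfat 1 and 2, to 1.39 in replicate 3 and to 0.197 to 0.329 in Mettl14f/f. Cldn11 carried most of this sum in Mettl14Δfat, at 3.61, 4.69 and 1.22. Gata4 was at 0.564, 0.69 and 0.145 there, against 0.0311 to 0.182 in the controls. Fshr was at 0.0746 or less and Rhox5 at 0 in every library. Amh was lower in Mettl14Δfat, at 0.0564, 0.0839 and 0.029 against 0.0955 to 0.104. Epithelial markers summed to 47.9 and 84.5, to 3.63 in replicate 3 and to 5.36 to 7.28 in Mettl14f/f. Among other cell types of fat, the macrophage and endothelial marker sums separated the groups. The adipocyte, progenitor and mesothelial sums overlapped between the groups. The 5 mesothelial markers summed to 27.5 to 33.4 in the controls and 17.7 to 48.8 in the knockouts, and none passed by limma. The sum of 6 macrophage markers was 758 to 1310 in the knockouts against 2030 to 2210 in the controls. Cd68 carried most of this sum. By limma Adgre1, Cd68, Itgam and Cd14 were lower, with log2 fold changes of -1.41, -1.25, -1.59 and -0.71. Csf1r at -0.52 (adjusted p = 0.053) and Mrc1 at -0.01 (0.986) did not pass. The 6 endothelial markers, all higher by limma, summed to 267 to 280 against 122 to 149. The 6 adipocyte markers, all detected, summed to 7090 to 9690 in the controls and 9620 to 13900 in the knockouts, and Fabp4 carried most of that sum. By limma Fabp4 and Pparg were higher (log2 fold changes of 0.61 and 0.45) and the other 4 did not pass, among them Adipoq at -0.42 and Cidec at -0.25. The 6 progenitor markers summed to 297 to 321 and 268 to 324, but differed among themselves: Pi16 fell by 1.58 and Pdgfrb by 0.30 on the log2 scale, Ly6a rose by 0.31, and the other 3 did not pass. In such bulk tissue, fewer cells of a type and less RNA per cell cannot be told apart. The part of these cell types in the values below was not tested, and results are also given with Mettl14Δfat replicate 3 as the only knockout library.

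Sequences are shown first for Mest, the gene of the set with the highest control level. Of the 10 genes, 6 have a promoter in the RefSeq table used here (assembly GRCm38.p6). The 250 bases before one of the 3 Mest starts in that table are printed because this stretch overlaps no annotated exon and holds 14 CG pairs, the pairs that carry DNA methylation, in capitals. The median of 32851 promoters of this length was 6 CG pairs, and 29.4% of them had at least as many as Mest.
Mest promoter, chr6:30737800-30738049, plus strand: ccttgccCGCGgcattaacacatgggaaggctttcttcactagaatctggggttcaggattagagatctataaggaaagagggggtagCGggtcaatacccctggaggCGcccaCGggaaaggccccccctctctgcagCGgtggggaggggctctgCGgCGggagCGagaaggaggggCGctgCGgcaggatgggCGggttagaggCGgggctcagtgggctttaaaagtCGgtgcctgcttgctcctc
This stretch has no TATAAA and no GCCATNTT, the YY1 motif, on either strand, letters that 12.4% and 3.91% of promoters hold. No methylation was measured here.

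The second set of sequences bears on the enzyme that was deleted. Mettl3 and Mettl14 methylate the adenosine of short motifs of which GGACT is the best known form, and GGACT occurred in 90.6% of 12832 tested genes whose transcript was matched, with a median of 1.06 per kilobase and quartiles of 0.627 and 1.55. A stretch of 29 bases from the coding part of 4 of the 10 genes is printed with GGACT in capitals, from GENCODE transcripts on GRCm38, as the RNA reads but with T for U.
Peg10, chr6:4754963-4754991, plus strand: aggacctggattGGACTgagcctgccctg
Peg3, chr7:6708924-6708952, minus strand: ctatgaatgccaGGACTgtgggctgggct
Cdkn1c, chr7:143459802-143459830, minus strand: gtcctgcacccgGGACTgctgcggccaat
Grb10, chr11:11951522-11951550, minus strand: atgacaacagctGGACTctggtggaacac
The letters are a description and not a methylated site. Peg10 had 4 such motifs (0.6 per kilobase), Peg3 had 9 (1.04), Cdkn1c had 2 (1.05) and Grb10 had 7 (1.38). Mest had 1, outside its coding part (0.375 per kilobase), and Sgce had 0. H19, a noncoding RNA, had the highest density of the 10, with 6 motifs or 2.62 per kilobase, above that of 95.6% of the genes matched. Mest, Peg10, Sgce and Igf2 (0.424 per kilobase) were under the lower quartile of motif density. No relation between the motifs and the changes below was tested.

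Across all 6 libraries the 10 genes spanned more than 3 orders of magnitude, from Dlk1 to Mest. Mest was the highest of them in the Mettl14f/f group, followed by Cdkn1c and Sgce, and the libraries of these neighbours did not overlap. Grb10, Peg3, Peg10, H19 and Plagl1 came next, and each overlapped the next gene in this order. Igf2 was below them and Dlk1 lowest. The Mettl14Δfat order differed at its top, where Peg10 was first, at 38.6 to 53.5 scaled FPKM, above Mest and Sgce, which overlapped each other. Peg3 moved to the place just above Dlk1.

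**Figure D1:**
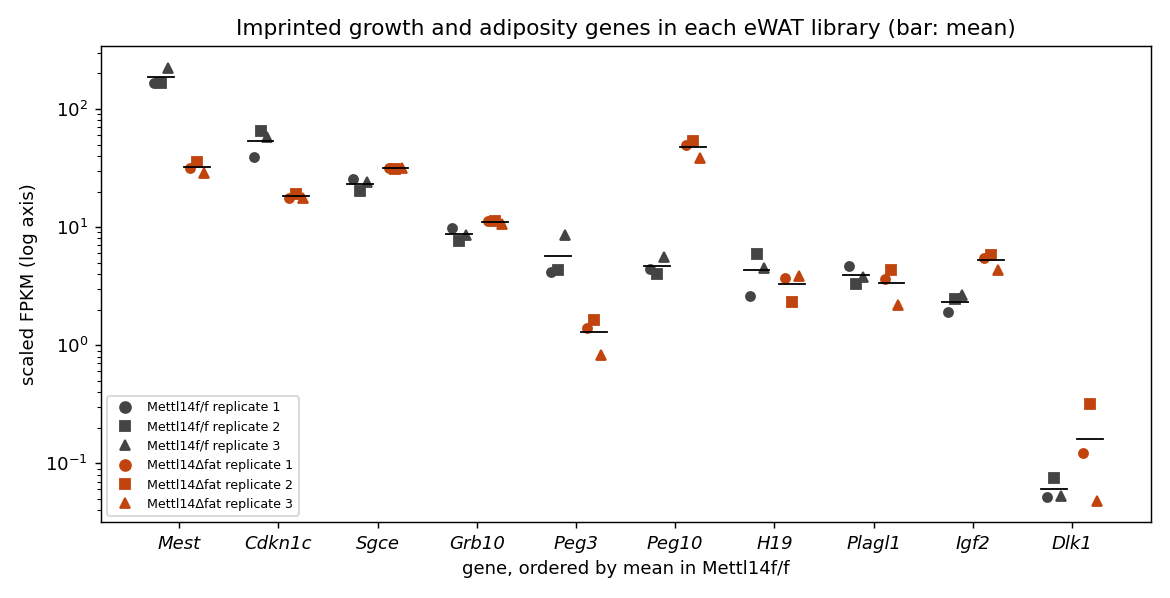
Scaled FPKM (log axis) of the 10 imprinted genes in each eWAT library, ordered by their Mettl14f/f mean. Grey points are the 3 Mettl14f/f libraries, orange points the 3 Mettl14Δfat libraries, and bars the group means; Peg10 rises from 4.66 to 47.2 and Mest falls from 185 to 32.0, while Plagl1, H19 and Dlk1 overlap between the groups.

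Mest, also called Peg1, encodes a protein of the alpha/beta hydrolase fold, which is found in the endoplasmic reticulum. It was at 167, 165 and 224 scaled FPKM in the Mettl14f/f libraries and at 31.9, 35.6 and 28.6 in the Mettl14Δfat libraries. Every knockout library was below every control library, and the lowest control was more than 4 times the highest knockout. The mean was 185 ± 33.4 (SD, n = 3) in Mettl14f/f and 32.0 ± 3.5 (SD, n = 3) in Mettl14Δfat, 5.78-fold lower, with a log2 fold change of -2.49 (SE 0.139). Mettl14Δfat replicate 3, the library with few germ line transcripts, had the lowest Mest value of all 6. Mest (chr6:30733506-30748466, GRCm38) overlaps the 3′ end of Copg2, transcribed from the other strand, by 913 bases, and the sources do not say whether the counting used strand.

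Peg10 and Sgce lie head to head on chromosome 6, with 102 bases between their starts, and share a control region. Peg10 (chr6:4747306-4760517) derives from a retrotransposon, encodes a gag-like protein that binds RNA and is needed for the placenta in mice. Its levels were 4.40, 4.00 and 5.56 scaled FPKM in Mettl14f/f and 49.6, 53.5 and 38.6 in Mettl14Δfat. All 3 knockout libraries stood above all 3 controls, and replicate 3 was the lowest of the knockouts. The means were 4.66 ± 0.809 and 47.2 ± 7.72 (SD, n = 3 each), 10.1-fold higher in Mettl14Δfat, with a log2 fold change of 3.09 (SE 0.148). With Mettl14Δfat replicate 3 alone the log2 fold change was 2.82.

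Sgce (chr6:4674350-4747204) encodes epsilon-sarcoglycan, a membrane protein of the dystrophin-linked complex. It was at 25.5, 20.1 and 23.9 scaled FPKM in the controls and at 31.4, 31.3 and 31.7 in the knockouts. The groups did not overlap, but the gap between the highest control and the lowest knockout was small. The mean was 1.36-fold higher in Mettl14Δfat, with a log2 fold change of 0.43 (SE 0.0885) and 0.59 with the FPKM as deposited. Sgce and Peg10 thus both stood higher in Mettl14Δfat, by 1.36-fold and 10.1-fold. The knockout libraries agreed closely for Sgce (coefficient of variation 0.748%) and less so for Peg10 (16.4%).

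Peg3 and Plagl1 encode zinc finger proteins that act in the nucleus. Peg3 (chr7:6703892-6730462), known in mice for effects on growth and maternal behaviour, was at 4.16, 4.32 and 8.62 scaled FPKM in Mettl14f/f and at 1.41, 1.62 and 0.821 in Mettl14Δfat. The third control library was about the sum of the other two, and all controls stayed above all knockouts. Its mean was 4.44-fold lower in Mettl14Δfat, with a log2 fold change of -1.51 (SE 0.268) that became -2.03 with a pseudocount of 0.1 FPKM. Peg3 overlaps 865 bases of an antisense transcript, Peg3os, whose reads cannot be told apart without strand. Plagl1 (chr10:13090832-13131694), a regulator of a network of imprinted genes in mouse embryos, was at 4.7, 3.29 and 3.78 scaled FPKM in Mettl14f/f and at 3.66, 4.31 and 2.2 in Mettl14Δfat. Its groups overlapped, and the log2 fold change was -0.19 (SE 0.203). Leaving out Mettl14Δfat replicate 3 turned it to 0.02, and replicate 3 alone gave -0.60. The span of Plagl1 overlaps that of Hymai, a noncoding RNA, by 5056 bases. The part of Hymai reads in the Plagl1 values was not tested.

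Igf2 and H19 are neighbours on chromosome 7 that share enhancers, used for Igf2 on the paternal copy and for H19 on the maternal one. Igf2 (chr7:142650768-142666816), a growth factor of the embryo, was at 1.92, 2.45 and 2.64 scaled FPKM in the controls and at 5.52, 5.83 and 4.31 in the knockouts. The knockout libraries were all above the controls, with replicate 3 nearest to them. The mean was 2.23-fold higher in Mettl14Δfat, with a log2 fold change of 0.90 (SE 0.129), which was 0.68 with replicate 3 alone and 1.13 with a pseudocount of 0.1 FPKM. The endothelial marker sum was also higher in all 3 of these libraries, at 267 to 280 against 122 to 149, as was the Leydig cell sum, and their part in the Igf2 value was not tested. The span of Igf2 overlaps that of Igf2os, a noncoding RNA, by 7137 bases. The part of Igf2os reads in the Igf2 values was not tested either. H19 (chr7:142575530-142578146), a noncoding RNA that also gives rise to a microRNA, was at 2.61, 5.89 and 4.51 in Mettl14f/f and at 3.67, 2.3 and 3.84 in Mettl14Δfat. These values overlapped, and the log2 fold change was -0.29 (SE 0.261).

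Dlk1 (chr12:109452485-109463336), a Notch-like membrane protein that marks preadipocytes and restrains adipogenesis in mice, was close to absent. It was listed at 0.05, 0.07 and 0.05 FPKM in Mettl14f/f and at 0.13, 0.34 and 0.05 in Mettl14Δfat as deposited. It fell under the filter of a mean of 1 FPKM and entered no test. The only libraries above the controls were Mettl14Δfat 1 and 2, the pair with germ line, Leydig cell and epithelial transcripts. Replicate 3 lay at the control level.

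Grb10 and Cdkn1c are brakes on growth. Grb10 (chr11:11930499-12037428) encodes an adaptor that binds the insulin and IGF1 receptors and dampens their signal. It was at 9.84, 7.59 and 8.63 scaled FPKM in Mettl14f/f and at 11.2, 11.2 and 10.7 in Mettl14Δfat. The groups were close to each other without overlap, and the mean was 1.27-fold higher in the knockouts, with a log2 fold change of 0.32 (SE 0.089). Cdkn1c (chr7:143458339-143461059) encodes p57, an inhibitor of cyclin-dependent kinases. Its values were 39.3, 64.8 and 57.8 in the controls and 17.6, 19.2 and 17.7 in the knockouts. All controls were more than 2 times as high as any knockout, and the mean was 2.97-fold lower in Mettl14Δfat, with a log2 fold change of -1.49 (SE 0.176). The 3 Mettl14Δfat libraries deviated from the control mean of log2 values by -1.53, -1.41 and -1.53 for Cdkn1c and by 0.34, 0.34 and 0.28 for Grb10, so that replicate 3 lay with the other two. The 2 growth inhibitors thus stood on opposite sides of the controls.

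By the direction of parental expression the 10 genes did not line up. Of the paternally expressed genes, Peg10, Sgce and Igf2 stood above the controls, Mest and Peg3 below them, and Plagl1 and Dlk1 overlapped. Of the maternally expressed ones, Grb10 stood above, Cdkn1c below and H19 overlapped. Of the 10 genes, 9 passed the filter, and the limma fit counted 4 of them as higher and 3 as lower at an adjusted p under 0.05. Of all 12955 genes tested, 24.8% were called higher and 24.7% lower, 49.5% in all, and nothing is read from the count for the 10 genes, since they were chosen with this contrast known. Groups did not overlap for 4 genes above and 3 below the controls, against 30.3% of all genes above and 30.9% below, 61.2% in all. The median log2 fold change was -0.19 over the 9 genes and 0.01 over all genes. A log2 fold change beyond 2 either way, which Mest and Peg10 had, occurred in 0.949% of all genes. Mest was the 10th lowest and Peg10 the 10th highest of 12955, Peg3 the 111th lowest and Cdkn1c the 122nd lowest.

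**Figure D2:**
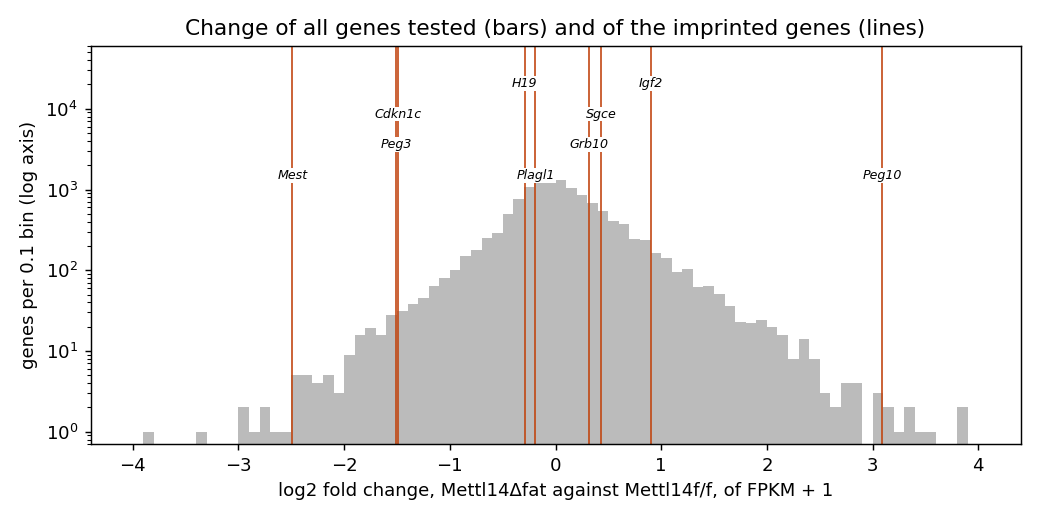
Number of genes in bins of 0.1 log2 fold change of FPKM + 1 (bars, log axis) for the 12955 genes tested, Mettl14Δfat against Mettl14f/f, with lines for the 9 imprinted genes that passed the filter. Mest at -2.49 and Peg10 at 3.09 lie in the tails, Peg3 at -1.51 and Cdkn1c at -1.49 lie together, and H19 and Plagl1 lie within the bulk.

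Other imprinted genes were followed in a list of 64, of which 60 were in the table and 39 passed the filter. The list was written from general knowledge of imprinting, but with earlier results of these data known. The shares below therefore describe these genes and are no independent test of imprinted genes. By limma at an adjusted p under 0.05, 8 were higher in Mettl14Δfat, 16 were lower and 15 did not pass. That is 61.5% called, against 49.5% of all genes, with 20.5% higher and 41% lower against 24.8% and 24.7%. Their median log2 fold change was -0.15, against 0.01 over all genes. Of 27 tested genes listed as maternally expressed, 4 were higher and 11 lower (median -0.28). Of 11 listed as paternally expressed, 4 were higher and 5 lower (median 0.05). These labels are not specific to fat, where some of the genes may be expressed from both copies, which was not measured. With the FPKM as deposited, where the median of all genes moved to 0.15, the counts were 10 higher and 12 lower. In that setting the split of all calls moved to 4672 higher and 1963 lower, from 3214 and 3202. Mettl14Δfat replicate 3 alone gave 5 higher and 9 lower, where 25.4% of 12517 genes were called.

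**Figure D3:**
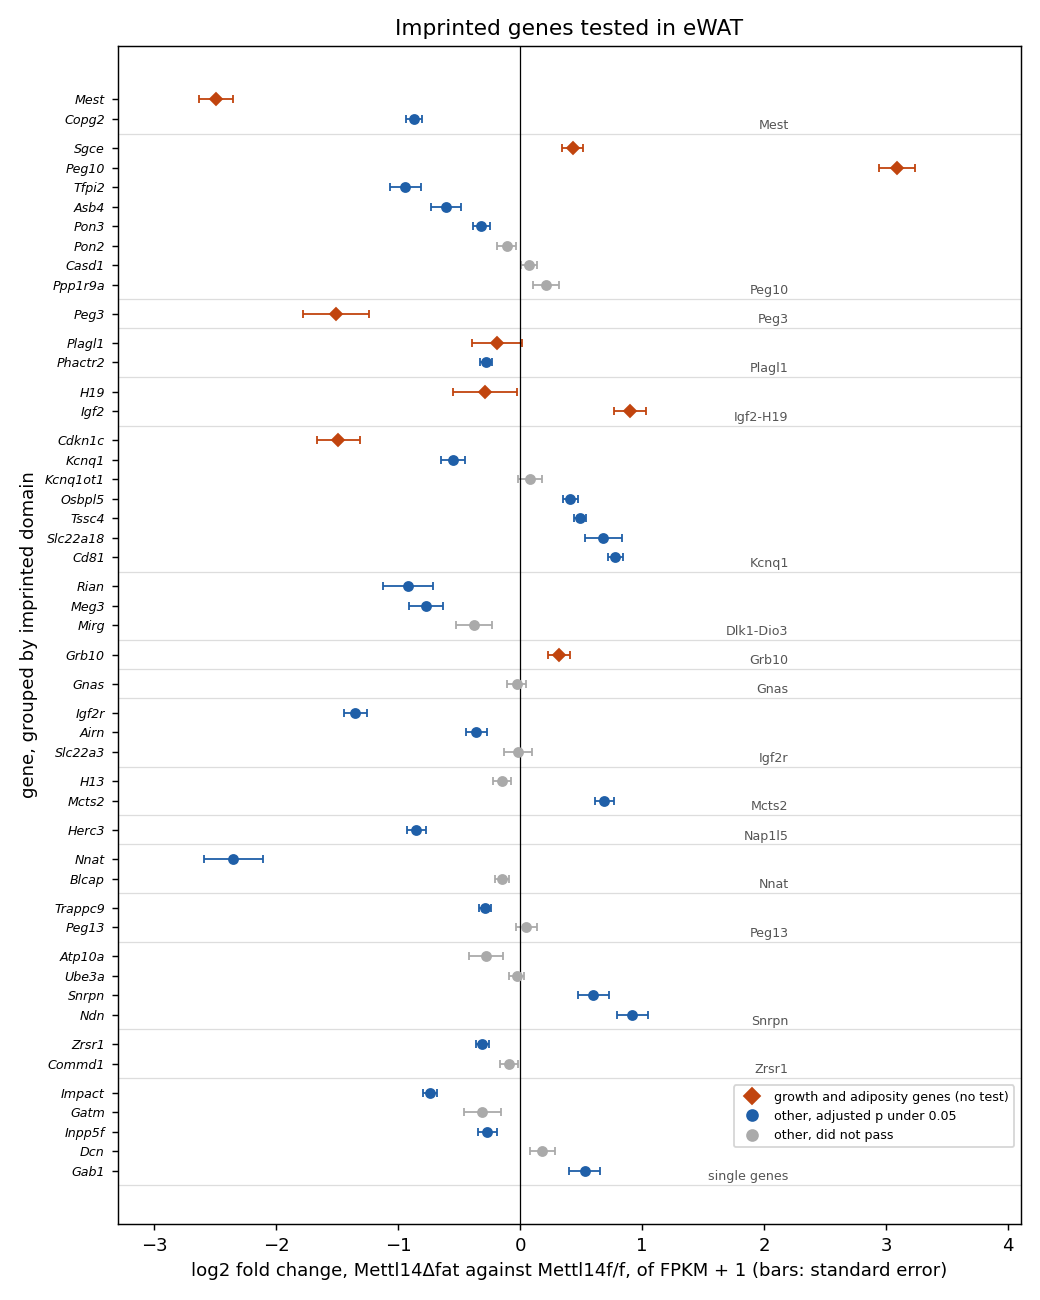
Log2 fold change of FPKM + 1 with its standard error, Mettl14Δfat against Mettl14f/f, for the 48 imprinted genes that passed the filter, grouped by imprinted domain (name at the end of each block). Diamonds are the growth and adiposity genes, shown with no test; blue points are other imprinted genes past an adjusted p of 0.05, which include Nnat at -2.35 and Ndn at 0.92, and grey points did not pass.

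Neighbours of the 10 genes were considered domain by domain. Beside Mest, Copg2, a subunit of the coat of Golgi vesicles, was at 18.5, 16.7 and 18.9 scaled FPKM in Mettl14f/f and at 9.65, 9.57 and 9.03 in Mettl14Δfat. It fell by 0.87 on the log2 scale (SE 0.0631, limma adjusted p = 2.8e-04), and its 3′ end is the stretch that overlaps Mest. Klf14, a transcription factor of fat at the same locus, stayed under the filter and was not tested, with 1.34, 1.21 and 2.52 in the controls and 0.15, 0.14 and 0.0386 in the knockouts. Mest and both of these neighbours were therefore lower in every knockout library than in any control library. Whether the counting used strand is unknown, and the part of Mest reads in the Copg2 values was not tested.

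Around Peg10 and Sgce the neighbours went the other way or did not pass. Tfpi2, an inhibitor of serine proteases, was at 4.99, 5.26 and 5.87 scaled FPKM in Mettl14f/f and 2.15, 1.92 and 2.96 in Mettl14Δfat, and fell by 0.94 on the log2 scale (SE 0.127, limma adjusted p = 0.0017). Asb4 fell by 0.61 (adjusted p = 0.00769) and Pon3, a lactonase, by 0.32 (adjusted p = 0.0103), and both calls were lost with replicate 3 alone (adjusted p = 0.0548 and 0.158), that of Pon3 also with the FPKM as deposited (0.105). Ppp1r9a had a log2 fold change of 0.21, Casd1 of 0.07 and Pon2 of -0.11, and these 3 did not pass (adjusted p = 0.142, 0.441 and 0.29). Each passed in some alternative: Ppp1r9a without a variance trend (adjusted p = 0.0418), Casd1 with the FPKM as deposited (0.21, adjusted p = 0.0407), and Pon2 scaled to Rplp0 (-0.23, 0.0291) and without Mettl14Δfat replicate 3 (-0.18, 0.0349). Of the 6 neighbours tested, 3 thus fell and 3 did not pass, while Peg10 and Sgce stood higher.

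In the Plagl1 domain, Phactr2, a regulator of protein phosphatase 1 and actin, fell by 0.28 on the log2 scale (SE 0.0489, limma adjusted p = 0.00412), a call that was lost with the FPKM as deposited (adjusted p = 0.0683) and with replicate 3 alone (0.0583). The Peg3 and Grb10 domains had no other gene past the filter. Near Grb10, Ddc, an enzyme that makes dopamine and serotonin, was at 0.827, 1.31 and 0.029 scaled FPKM in the Mettl14Δfat libraries and at 0.191 or less in the controls. Ddc was thus highest in Mettl14Δfat 1 and 2, the libraries with germ line, Leydig cell and epithelial transcripts. So was Slc38a4, an imprinted amino acid transporter, at 0.648, 1.04 and 0.193 in Mettl14Δfat. From which of these cell types they came was not tested. Replicate 3 lay below every control for Ddc and among the controls for Slc38a4.

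**Figure D4:**
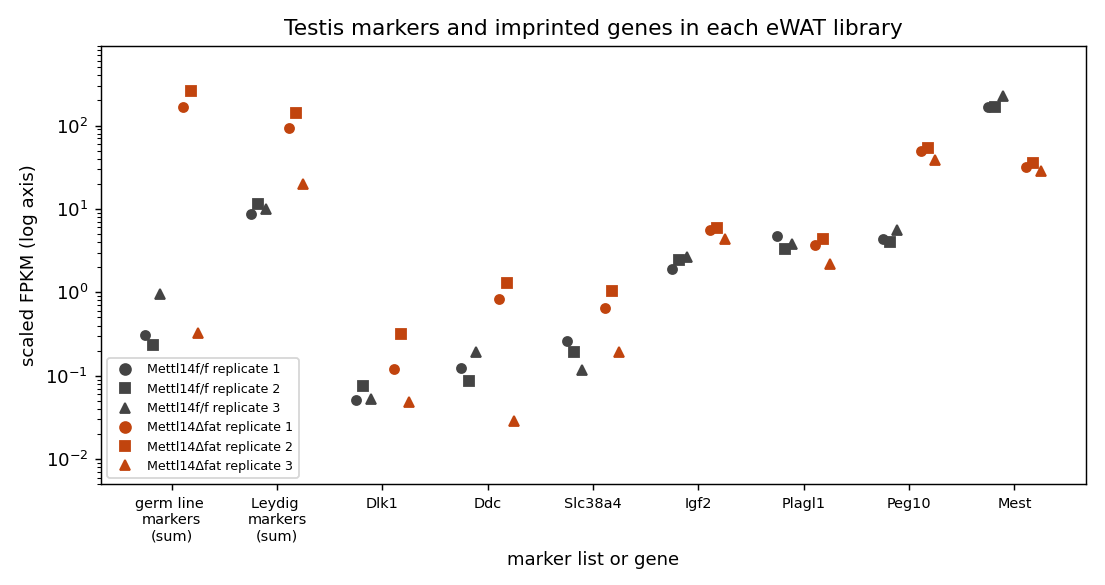
Scaled FPKM (log axis) of the summed germ line and Leydig cell markers and of 7 imprinted genes in each library, grey for Mettl14f/f and orange for Mettl14Δfat, with a circle, square and triangle for replicates 1, 2 and 3. Mettl14Δfat replicate 3 (triangle) lies at 0.328 for the germ line markers, near the controls for Dlk1 and Slc38a4 and below them for Ddc, while for Igf2, Peg10 and Mest it lies with the other Mettl14Δfat libraries.

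The Kcnq1 domain holds Cdkn1c, and 6 of its other genes were tested. Of these, 4 were higher in Mettl14Δfat by limma, opposite in direction to Cdkn1c. Cd81, a tetraspanin of the cell surface that marks a class of fat progenitors, was at 158, 160 and 169 scaled FPKM in Mettl14f/f and 269, 288 and 279 in Mettl14Δfat, a log2 fold change of 0.78 (SE 0.061, adjusted p = 3.4e-04). Slc22a18, a transporter, rose by 0.68 (adjusted p = 0.0111, and 0.128 with replicate 3 alone), Tssc4 by 0.49 (adjusted p = 7.5e-04) and Osbpl5, a lipid transfer protein, by 0.41 (adjusted p = 0.00275). Kcnq1, a potassium channel, fell by 0.55 on the log2 scale (adjusted p = 0.00473, and 0.0603 with replicate 3 alone). The antisense RNA Kcnq1ot1, which silences the domain on the paternal copy, lies inside Kcnq1 and did not pass, with a log2 fold change of 0.08 (adjusted p = 0.488).

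Dlk1 shares its domain with noncoding RNAs expressed from the maternal copy. Meg3 was at 53.4, 67.9 and 62.4 scaled FPKM in Mettl14f/f and at 36.1, 29.5 and 41.2 in Mettl14Δfat, and fell by 0.77 on the log2 scale (SE 0.14, limma adjusted p = 0.0049). Rian, a host of small nucleolar RNAs, fell by 0.92 (SE 0.202, adjusted p = 0.0103, and 0.104 with replicate 3 alone). Mirg, a host of microRNAs, had a log2 fold change of -0.38 and did not pass (adjusted p = 0.0662, from 0.0303 to 0.308 over 16 alternatives). These maternal RNAs were thus present in libraries in which Dlk1 was near 0.

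Away from these domains, the largest change among the 39 other imprinted genes tested was that of Nnat, neuronatin, a small membrane protein of the endoplasmic reticulum. It was at 259, 126 and 205 scaled FPKM in Mettl14f/f and at 36.3, 34.3 and 37.8 in Mettl14Δfat, a log2 fold change of -2.35 (SE 0.244, limma adjusted p = 7.5e-04). Nnat lies within Blcap, for which the log2 fold change was -0.15 and did not pass (adjusted p = 0.0653). Herc3 fell by 0.85 (adjusted p = 5.9e-04) and Impact, an inhibitor of the kinase Gcn2, by 0.74 (adjusted p = 3.3e-04). Of the paternally expressed genes that rose, Ndn, necdin, a suppressor of cell growth and of adipogenesis, rose by 0.92 (adjusted p = 0.00179), Mcts2 by 0.69 (adjusted p = 9.1e-04) and Snrpn, a splicing protein, by 0.60 (adjusted p = 0.00883, and 0.092 with replicate 3 alone). Gab1, an adaptor of growth factor receptors, rose by 0.53 (adjusted p = 0.0149), and 4 of 16 alternatives lost this call, with adjusted p up to 0.142.

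Igf2 acts through a set of receptors and binding proteins, and 14 of the 19 genes of this IGF axis were tested. By limma 4 were higher in Mettl14Δfat and 5 lower, where 24.8% and 24.7% of all genes were, and the median log2 fold change was 0.21, against 0.01 over all genes. Igf2r, the receptor that clears Igf2 and is itself imprinted, was at 52.1, 63.4 and 61.0 scaled FPKM in Mettl14f/f and at 22.1, 20.6 and 24.5 in Mettl14Δfat, and fell by 1.35 on the log2 scale (SE 0.0967, adjusted p = 2.7e-04). Igf2 and the receptor that clears it thus stood on opposite sides of the controls in every library. Igf2bp2, an RNA-binding protein known both as a regulator of Igf2 translation and as a reader of m6A, was at 24.0, 34.5 and 30.7 in the controls and at 8.26, 7.12 and 9.39 in the knockouts. It fell by 1.72 (SE 0.148, adjusted p = 4.3e-04), and the binding protein Igfbp3 by 0.74 (adjusted p = 0.0105).

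Among the 4 higher genes of the axis, Igfals, which stabilises IGF complexes in blood, was at 12.3, 8.95 and 12.3 scaled FPKM in Mettl14f/f and at 46.3, 56.0 and 33.0 in Mettl14Δfat, a log2 fold change of 1.90 (SE 0.207, adjusted p = 8.7e-04 by limma). Igfbp5 rose by 0.31 (adjusted p = 0.0247), and 8 of 16 alternatives lost that call, with adjusted p up to 0.254. The count of higher genes in this list was 1 with no filter, with the replicate number as a block and with replicate 3 alone, and among libraries left out it was 1 without Mettl14f/f replicate 3 or Mettl14Δfat replicate 1, 2 without Mettl14f/f replicate 2 or Mettl14Δfat replicate 2, and 7 without Mettl14Δfat replicate 3. Igf1, the other ligand, was at 37.1, 37.6 and 34.5 in the controls and 29.2, 29.2 and 30.0 in the knockouts, and fell by 0.30 (adjusted p = 0.00514), a call that was lost with the FPKM as deposited (0.0653) and with replicate 3 alone (0.0876). The ligands Igf1 and Igf2 therefore stood on opposite sides of the controls, and Igf1 was the more abundant of them per kilobase in all 6 libraries.

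Of 20 genes related to the 10 by sequence or family, 14 were tested. By limma 4 of these were higher and 2 lower, where 24.8% and 24.7% of all genes were, and their median log2 fold change was 0.07, against 0.01 over all genes. Sgcd, delta-sarcoglycan, a relative of Sgce, rose by 1.31 (SE 0.146, adjusted p = 9.4e-04), from 6.26, 3.88 and 4.66 scaled FPKM in Mettl14f/f to 12.8, 14.8 and 12.9 in Mettl14Δfat. Cxx1a and Cxx1b, which like Peg10 derive from retrotransposon gag genes, rose by 0.98 (adjusted p = 0.00109) and 0.89 (adjusted p = 0.00106). Cxx1a and Cxx1b are near-identical copies that may share reads, so their separate values are uncertain. Other gag-derived relatives did not pass: the log2 fold change was -0.01 for Cxx1c (adjusted p = 0.93), -0.20 for Rgag4 (0.147) and 0.15 for Ldoc1l (0.132). Plagl2, a relative of Plagl1, fell by 0.63 (adjusted p = 0.0011). The relatives Cdkn1a and Cdkn1b of Cdkn1c had log2 fold changes of -0.01 and 0.21 and did not pass (adjusted p = 0.917 and 0.0754).

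Dlk1 resembles ligands of Notch receptors, and 16 of 19 genes of the Notch pathway were tested. By limma 9 were higher in Mettl14Δfat and 4 lower, where 24.8% and 24.7% of all genes were, with a median log2 fold change of 0.31 against 0.01 over all genes. The ligands Dll4 and Jag2 rose by 1.04 (adjusted p = 0.00128) and 1.03 (adjusted p = 5.5e-04). Dll4 was at 3.95, 2.96 and 3.7 scaled FPKM in Mettl14f/f and 8.4, 9.63 and 7.02 in Mettl14Δfat. The transcription factor Sox9 rose by 1.29 (adjusted p = 0.0268), a call lost in 5 of 14 alternatives (adjusted p up to 0.083). Its levels of 3.85, 6.02 and 1.39 in Mettl14Δfat were highest in the 2 libraries with germ line, Leydig cell and epithelial transcripts. Adam17 and Adam10, proteases that cut Notch and Dlk1, fell by 0.65 (adjusted p = 0.00375) and 0.45 (adjusted p = 0.00111). The endothelial marker sum was higher in the same Mettl14Δfat libraries, at 267 to 280 against 122 to 149 scaled FPKM, and its part in the Notch counts was not tested. With replicate 3 alone, where 25.4% of all genes were called, 5 were higher and 2 lower, and the lower count was also 2 without Mettl14f/f replicate 2, Mettl14f/f replicate 3 or Mettl14Δfat replicate 1.

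Mest belongs to a group of genes known in mice to vary with the capacity of fat to expand. Of the 5 others listed, 3 were lower and 2 higher in Mettl14Δfat by limma, where 49.5% of all genes were called either way, and their median log2 fold change was -0.46. Sfrp5, a secreted inhibitor of Wnt signalling, was at 123, 103 and 151 scaled FPKM in the controls and 43.1, 64.8 and 16.5 in the knockouts, and fell by 1.76 (SE 0.462, adjusted p = 0.0196). Its call was lost without Mettl14f/f replicate 1 (adjusted p = 0.0562) and without Mettl14f/f replicate 3 (0.0685), settings that left 1 lower gene in the list. Trp53inp2 fell by 1.14 (SE 0.122, adjusted p = 8.2e-04). Lep, the gene of the fat hormone leptin, was at 429, 368 and 412 in Mettl14f/f and 306, 343 and 235 in Mettl14Δfat, and fell by 0.46 (adjusted p = 0.0382), a call that 6 of 16 alternatives lost, with adjusted p up to 0.154. Nkd1, an inhibitor of Wnt signalling, rose by 1.48 (adjusted p = 9.6e-04) and Bmp3 by 0.59 (adjusted p = 0.0129, lost without Mettl14f/f replicate 2 at 0.0504 and with replicate 3 alone at 0.109). Mest, Sfrp5, Trp53inp2 and Lep were thus lower together, while Nkd1 and Bmp3 stood on the other side.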

How the data were processed

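The deposited FPKM, 1 value per gene and library with 2 decimals, already include the alignment, counting and gene models of the authors. By the study's methods the authors used STAR and HTSeq, and DESeq2 for their own tests. In the submitters' notes the tools of the authors are HISAT2, Bowtie2, RSEM and DESeq2, with build mm10 and no versions. Another deposited table holds fold changes and p-values of the authors, which were not used, and a mean signal per group, a count that they scaled. These authors' mean counts in Mettl14f/f and Mettl14Δfat were 9960 and 1690 for Mest, 666 and 6450 for Peg10, and 145 and 308 for Igf2, the lowest Mettl14f/f mean among the 7 of the 10 genes listed. FPKM of 21361 named genes (1 unnamed entry left out, 27 symbols restored from dates) summed to 459180 to 487690 per library. Libraries were scaled by the trimmed mean of M values over the 12955 genes whose mean reached 1 FPKM. The log2(value + 1) of these was fitted with limma 3.58.1 (R 4.3.3) with a trended variance and Benjamini-Hochberg adjustment over all of them. This procedure was tested on simulated data with few changed genes, as many up as down. It was not tested for data in which, as here, 49.5% of genes are called. The 10 genes, the other imprinted genes and all lists were chosen with earlier results of these data known. Also named were up to 15 other imprinted genes by size of change (adjusted p under 0.05, no overlap, at least 5 FPKM in the higher group), tested neighbours of the 10 genes, up to 5 genes a list, and the 5 profiles nearest to Mest and to Peg10, of which 1 is not reported here; Ddc, Slc38a4, Klf14, Blcap, Cdkn1a, Cdkn1b, Cxx1c, Rgag4, Ldoc1l and single marker genes were named after their values were seen. An exact permutation test of 3 against 3 cannot go below p = 0.1, so none was used. Alternatives were another pseudocount, other filters, scalings and variance models, a replicate block, and libraries left out.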

Additional observations from a re-analysis of the deposited data

How the results depend on the processing

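Over 16 alternatives the log2 fold change of Mest lay between -2.63 and -2.33, that of Peg10 between 2.82 and 3.31, of Sgce between 0.31 and 0.59, of Igf2 between 0.68 and 1.13, of Grb10 between 0.20 and 0.46, of Cdkn1c between -1.70 and -1.33, and, over 15 alternatives, that of Peg3 lay between -2.03 and -1.22. Plagl1 ran from -0.34 to 0.02 with 1 library left out, turning to 0.02 without Mettl14Δfat replicate 3, Pon2 to 0.05 with the FPKM as deposited (adjusted p = 0.509) and with replicate 3 alone (0.647), and Casd1 to -0.04 when scaled to Rplp0 (0.681). The cause of these changes was not tested. With Mettl14Δfat replicate 3 alone, a fit of fewer samples, 1656 genes were called higher and 1519 lower, of the imprinted genes 5 higher and 9 lower, of the 10 genes 2 higher, of the IGF axis 1 higher, of the Notch list 5 higher and 2 lower, of the fat expansion list 1 higher and of the imprint maintenance list 2 lower. With the FPKM as deposited, 1963 genes were lower, and 1 relative, 2 Notch genes and 2 imprint maintenance genes were lower, with 2 imprint maintenance genes higher. That last count was also 2 without a variance trend, and the IGF axis had 1 higher gene with no filter.

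When 1 library was left out at a time, 2256 to 3813 genes were higher and 2202 to 3565 lower. The imprinted genes gave 7 to 8 higher and 14 to 21 lower, the relatives 4 to 5 and 2 to 3, the IGF axis 1 to 7 and 5 to 5, the Notch list 7 to 9 and 2 to 5, the fat expansion list 1 to 2 and 1 to 3, the imprint maintenance list 1 to 1 and 3 to 4, and the 10 genes 3 to 4 and 3 to 3.

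Replicates with the same number in both groups did not deviate together (correlations of 0.04, -0.09 and -0.13), so the numbers were not taken to pair the mice. With the replicate number as a block, 2656 genes were higher and 2558 lower, 8 and 15 of the imprinted genes, and the IGF axis had 1 higher gene. Depth limits the low genes: FPKM does not show how many reads stand behind Dlk1, Ddc or Klf14.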

Other observations

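Genes that keep or write imprints were listed apart, and 11 of 13 were tested. By limma 4 were lower in Mettl14Δfat and 1 was higher, where 24.7% and 24.8% of all genes were, with a median log2 fold change of -0.08 against 0.01 over all genes. Dnmt3a, which writes new DNA methylation, was at 30.4, 38.6 and 34.2 scaled FPKM in Mettl14f/f and at 12.2, 10.9 and 15.1 in Mettl14Δfat, and fell by 1.37 (SE 0.132, adjusted p = 6.0e-04). Dnmt1, which copies methylation at cell division, fell by 0.78 (adjusted p = 0.00106), and Uhrf1, which guides it, by 0.32 (adjusted p = 0.0113, lost with the FPKM as deposited at 0.0838 and with replicate 3 alone at 0.0733). Dnmt3l, a cofactor of Dnmt3a in germ cells, rose by 0.46 (adjusted p = 0.0034) and was no higher in the libraries with germ line transcripts (2.77 and 2.78) than in replicate 3 (2.89). The macrophage marker sum, mostly Cd68, was also lower in all Mettl14Δfat libraries, at 758 to 1310 against 2030 to 2210. Its part in these values was not tested.

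Among the genes whose profile over the 6 libraries lay nearest to that of Mest, by the root mean square difference of centred log2(scaled FPKM + 1), were Npy (0.228), Dcstamp (0.23), Tm4sf19 (0.259) and Rnf128 (0.26). Npy, a neuropeptide, was at 21.1, 30.4 and 26.9 scaled FPKM in Mettl14f/f and at 3.44, 3.2 and 2.83 in Mettl14Δfat. Dcstamp, a fusion protein of osteoclasts and macrophage giant cells, was at 11.7, 15.5 and 14.1 and at 1.85, 1.85 and 2.16. Nearest to Peg10 were Aadac (0.168), Mir8097 (0.206), Fam46b (0.238), Chchd10 (0.243) and Sptlc3 (0.255). Aadac, a lipid esterase, was at 0.291, 0.376 and 0.414 in the controls and at 13.8, 15.4 and 9.66 in the knockouts, and Mir8097 was listed at 0 in every control. These genes were chosen for the likeness, which over 6 libraries in 2 groups is mostly that of a change of the same size.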
